A study of Mus musculus with 4 samples.

Results

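The Toll-like receptor and NF-kB genes considered here were Tlr2, Tlr4, Ly96, Tank, Tifa, Rela and Nfkb2. Their members are the peaks that the tables of the study pair with one of these 7 genes, found by peak name in the deposited lists of differential peaks. There were 7 such peaks among 21089 in all, 6 of H3K9ac among 20943 and 1 of H3K27me3 among 146. Every other listed peak within 50 kb, measured edge to edge, was taken as a neighbour. The study compared chromatin of aorta macrophages from C57BL/6J mice kept for 20 weeks under chronic intermittent hypoxia (CIH) or room air (RA). CIH was 90 seconds at 6.1% oxygen in turn with 90 seconds at 21% during the daily light phase, and RA mice received oscillations at 21% in matching cages. CD11b+ cells were taken from digested aortas with magnetic beads. ChIP-Seq gave 4 libraries, 1 for each mark in each exposure, with no input library. The RA library of H3K27me3 is titled H3K72me3, but its antibody label reads H3K27me3.

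The deposited lists give for each peak its position on the mouse build mm9 and its direction. A peak is either higher in CIH or higher in RA, and its score is 1000 throughout, so the lists hold neither a level per library nor the size of a difference. Each mark was sequenced from a single library in each exposure, so there is no replicate error and no test was possible. Every statement below therefore describes a pair of libraries. The study kept in its H3K9ac gene table only the peaks with the most reads for CIH and for RA. The H3K9ac members come from that selection, whereas the deposited list was not limited in this way. The lists give no read totals. The study's sequencing yields were larger for the CIH library than for the RA library of both marks, and the part of this difference in the directions below was not tested. The CD11b+ selection takes other myeloid cells besides macrophages, and the label could not be checked against marker genes, since a list of differential peaks does not show where a mark is present in both exposures. A change in the kinds of cell and a change within macrophages cannot be told apart in these libraries.

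Toll-like receptors recognise microbial products at the surface or in endosomes of macrophages and pass the signal through adaptor proteins to the kinases that release NF-kB. NF-kB is a family of dimeric transcription factors that is held in the cytoplasm until the pathway is engaged, and then drives inflammatory genes, among them several of its own components. H3K9ac marks active promoters and enhancers, and H3K27me3 marks chromatin silenced by Polycomb complexes.

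Stretches of the peaks or promoters are printed 5′ to 3′ because their start sites, motifs or base composition are discussed below. Capitals mark letters that match the NF-kB consensus, searched on both strands, and, in the 3 H3K9ac peak stretches, also the AP-1 motif TGANTCA. The peak stretches stand as the study's table writes them. The 2 promoter windows are from RefSeq on GRCm38.p6 and run in the direction of the gene, from 250 bases before its listed start to 50 from the start on.
Tlr2 promoter, chr3:83841559-83841858, minus strand, GRCm38.p6: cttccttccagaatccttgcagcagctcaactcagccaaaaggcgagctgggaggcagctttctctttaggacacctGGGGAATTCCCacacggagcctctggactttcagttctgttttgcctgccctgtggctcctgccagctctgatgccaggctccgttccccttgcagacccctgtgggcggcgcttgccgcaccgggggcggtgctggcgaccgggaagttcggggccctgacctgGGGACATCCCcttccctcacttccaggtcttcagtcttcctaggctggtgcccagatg
Tank peak, chr2:61431001-61431258, mm9: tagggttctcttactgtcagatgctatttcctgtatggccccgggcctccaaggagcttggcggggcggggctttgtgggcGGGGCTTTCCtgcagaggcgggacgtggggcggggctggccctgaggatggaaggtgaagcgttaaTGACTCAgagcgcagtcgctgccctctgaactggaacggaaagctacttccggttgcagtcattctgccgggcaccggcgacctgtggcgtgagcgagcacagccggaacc
Nfkb2 promoter, chr19:46304487-46304786, plus strand, GRCm38.p6: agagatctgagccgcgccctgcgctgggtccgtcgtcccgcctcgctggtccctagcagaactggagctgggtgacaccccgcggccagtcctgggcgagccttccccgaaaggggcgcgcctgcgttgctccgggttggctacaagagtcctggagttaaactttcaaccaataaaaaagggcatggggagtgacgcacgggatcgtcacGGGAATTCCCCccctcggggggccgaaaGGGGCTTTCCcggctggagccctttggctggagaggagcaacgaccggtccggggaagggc
Nfkb2 peak, chr19:46379821-46380049, mm9: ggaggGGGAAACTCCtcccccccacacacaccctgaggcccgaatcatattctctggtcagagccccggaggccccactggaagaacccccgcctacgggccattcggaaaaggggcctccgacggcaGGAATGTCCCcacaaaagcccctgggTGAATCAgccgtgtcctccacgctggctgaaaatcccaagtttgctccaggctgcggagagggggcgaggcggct
Rela peak, chr19:5609141-5609350, mm9: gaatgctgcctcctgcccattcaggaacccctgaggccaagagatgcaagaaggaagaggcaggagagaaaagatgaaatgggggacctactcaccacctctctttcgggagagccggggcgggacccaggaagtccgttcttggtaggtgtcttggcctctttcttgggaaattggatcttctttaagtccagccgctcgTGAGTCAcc
Ly96 H3K27me3 peak, chr1:16811501-16811750, mm9: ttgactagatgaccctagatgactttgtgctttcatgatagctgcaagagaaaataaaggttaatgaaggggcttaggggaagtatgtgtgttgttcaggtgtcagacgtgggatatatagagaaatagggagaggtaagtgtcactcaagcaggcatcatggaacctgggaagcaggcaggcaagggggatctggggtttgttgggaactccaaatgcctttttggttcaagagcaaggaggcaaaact

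The H3K9ac peaks paired with the receptor and adaptor genes and those paired with the subunit genes had opposite directions, which does not extend to all listed peaks around these genes. All 4 H3K9ac peaks of Tlr2, Tlr4, Tank and Tifa were higher in RA, where 54.6% of the whole list had that direction. Both peaks of Rela and Nfkb2 were higher in CIH, where 45.4% of the list did. Of the 483 H3K9ac table peaks held, from which the members come, 51.1% were higher in RA and 236 peaks were higher in CIH. The remaining gene, Ly96, had no H3K9ac peak in the part of the table held and 1 H3K27me3 peak, which was higher in CIH as were 36.3% of the H3K27me3 list. With 6 H3K9ac peaks and a background near an even split, these counts are a description of the 6 peaks.

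**Figure D1:**
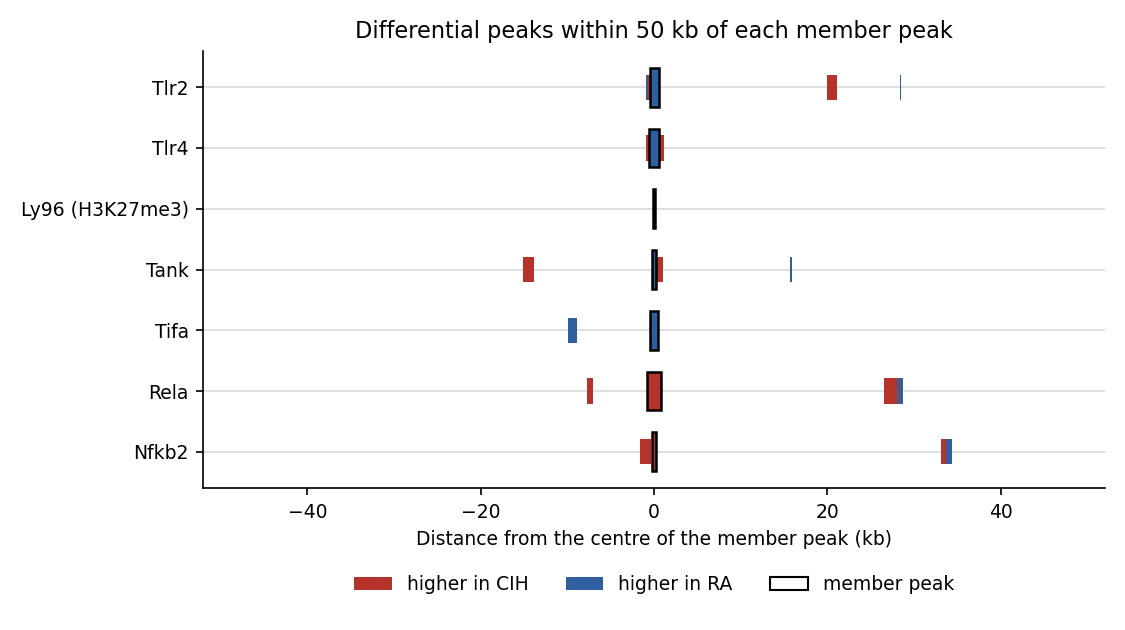
Listed differential peaks (boxes, drawn to scale) by distance in kb from the centre of each member peak, with 1 gene per row; red is higher in CIH, blue is higher in RA and a black outline marks the member. The rows of Tlr2, Tlr4, Tank and Tifa have a blue member, those of Rela and Nfkb2 a red one, and the row of Ly96 holds its H3K27me3 peak alone.

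Among the receptors, Tlr2 recognises bacterial lipoproteins as a dimer with another Toll-like receptor. Its H3K9ac peak, chr3:83645601-83646650, was 1050 bp wide and higher in RA, wider than 96.7% of the listed RA peaks. The peak did not stand alone. A 200 bp peak higher in CIH touched its lower edge, and below that lay a further peak of 250 bp higher in RA, so that 1500 bp without a gap held 1300 bp higher in RA and 200 bp higher in CIH. The Tlr2 promoter printed above crosses this boundary. Its first 180 bases are the reverse complement of the first 180 bases of the peak higher in RA, while the listed start lies 71 bases below the peak, within the distance taken up by the CIH peak. The outer 5′ end of the gene in RefSeq falls inside the RA peak, at its base 146. The NF-kB motif that begins 173 bases before the listed start is inside the RA peak, and the one that begins 8 bases before the start lies beyond its edge. More distant from Tlr2, a 1100 bp peak was higher in CIH at 19450 bp and a 200 bp peak was higher in RA at 27800 bp.

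Tlr4 is the receptor for lipopolysaccharide. Its peak, chr4:66488901-66490000, was 1100 bp wide, higher in RA and wider than 97.4% of the RA peaks. The table pairs the same peak with Brinp1. It was touched on both sides by peaks higher in CIH, of 400 bp below and 600 bp above, so that a run of 2100 bp held 1100 bp higher in RA between 1000 bp higher in CIH. Of the listed RA peaks, 4.05% were touched on both sides. No other peak lay within 50 kb, and the next was a 550 bp peak higher in RA at 52850 bp. RefSeq lists no promoter window for Tlr4, so the distance of the member peak from the gene is not given. Its assignment to Tlr4 rests on the study's pairing alone.

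Ly96 encodes MD-2, the protein that binds lipopolysaccharide together with Tlr4. Its H3K27me3 peak, chr1:16811501-16811750, was 250 bp wide and higher in CIH, and no CIH peak of that list was narrower. Their median width was 300 bp. The sequence printed above has 46% GC and a single CpG. RefSeq lists no promoter window for Ly96, so the distance of the peak from the gene is not given. Its assignment to Ly96 rests on the study's pairing alone. No peak of either mark lay within 50 kb or 100 kb, and the nearest H3K9ac peak was 132300 bp away, 1300 bp wide and higher in CIH. Of the 146 H3K27me3 peaks, 62 (42.5%), that of Ly96 among them, had no H3K9ac peak within 50 kb. Among the 53 higher in CIH there were 13 such peaks. The nearest other H3K27me3 peak, at 5.66 Mb, was higher in RA.

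Among the adaptors, Tank binds TRAF proteins and links them to the kinases of the TBK1 family. Its peak, chr2:61431001-61431550, was 550 bp wide and higher in RA, and 77.7% of the RA peaks were narrower. An 800 bp peak higher in CIH touched its upper edge. RefSeq lists starts of Tank in separate places. By sequence, 2 of them fall inside the RA peak, at its bases 154 and 209. The other 2 lie 14387 and 14358 bases before it, a distance at which the list has a 1300 bp peak higher in CIH, 13550 bp from the member. This placement, like those of the starts outside the Tlr2 and Nfkb2 peaks, assumes that mm9 and GRCm38.p6 are the same length over that stretch, which could not be checked without the mm9 genome. The inner and outer starts of Tank thus lay at listed peaks of opposite direction. A 200 bp peak higher in RA lay 15400 bp above. Of the listed length at Tank, the member included, 73.7% was higher in CIH, against 46.4% at Tlr2 and 47.6% at Tlr4.

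Tifa is an adaptor that joins TRAF6 and is engaged by the kinase Alpk1, a sensor of bacterial sugars. The table pairs 1 peak, chr3:127492001-127492900, with both genes. It was 900 bp wide and higher in RA, wider than 94% of the RA peaks. Its single neighbour, 8400 bp below, was 1050 bp wide and higher in RA too. Tifa was the one gene of the 6 with no peak higher in CIH within 50 kb. No run of 30 bases was shared between the letters held of the Tifa peak and any promoter window. Its distance from the start of the gene is therefore not given, and its assignment rests on the study's pairing alone.

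**Figure D2:**
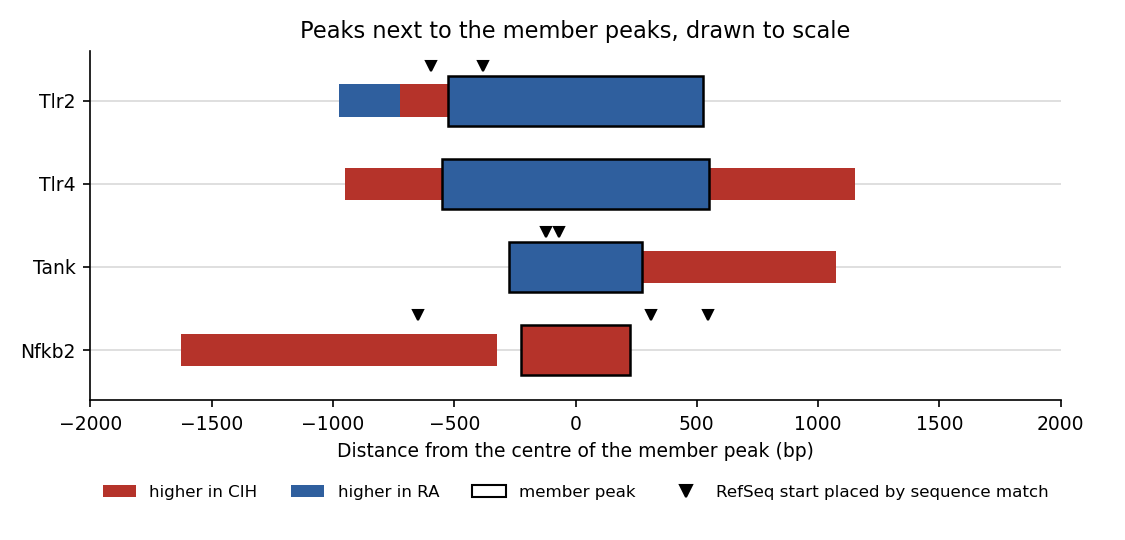
Peaks at and next to the Tlr2, Tlr4, Tank and Nfkb2 members, drawn to scale against distance in bp from the centre of the member (black outline); red is higher in CIH, blue is higher in RA, and triangles are RefSeq starts placed by sequence match. The Tlr2 starts straddle the edge between a red and a blue peak, Tlr4 has red on both sides, the 2 Tank starts sit inside the blue peak, and the Nfkb2 starts lie outside the outlined peak.

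Rela encodes p65, the subunit that carries the transactivation domain of the classical NF-kB dimer. Its peak, chr19:5609051-5610600, was the widest of the 6 at 1550 bp, higher in CIH and wider than 93.9% of the CIH peaks. Nothing touched it. A 700 bp peak higher in CIH lay 6300 bp below, and a 1500 bp peak higher in CIH lay 25750 bp above. The latter began a touching chain that went on with 200 bp higher in RA, 200 bp higher in CIH and 300 bp higher in RA. Of the listed length at Rela, the member included, 88.8% was higher in CIH. The letters held of the Rela peak share no run of 30 bases with a promoter window, so its distance from the start of the gene is not given. Its assignment to Rela rests on the study's pairing alone, and the peak may lie far from that start.

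Nfkb2 encodes p100, which is cut to p52, the subunit of the alternative NF-kB pathway. Its peak, chr19:46379651-46380100, was the narrowest of the 6 H3K9ac members at 450 bp. It was higher in CIH, and 26.2% of the CIH peaks were narrower. A second peak higher in CIH, 1300 bp wide, lay 100 bp below it. RefSeq starts were placed on both sides of the member, 424 bases before it and 85 and 320 bases past its end. The first of these lies at a distance covered by the 1300 bp peak, and the promoter window printed above belongs to it. The other 2 starts lay beyond the end of the member in a stretch with no listed peak. By the same placement, the outer 5′ end of the gene in RefSeq lies 4167 bases before the member, also where no peak is listed. At 32850 bp a 650 bp peak higher in CIH touched a 600 bp peak higher in RA. Of the listed length at Nfkb2, 80% was higher in CIH.

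Compared by width, the 6 H3K9ac members ran from 450 to 1550 bp with a median of 975 bp, against 450 bp in the whole list. The H3K9ac gene table, which the study limited to peaks with the most reads, holds wide peaks in general. Its median was 850 bp for peaks higher in RA and 1400 bp for peaks higher in CIH. Read against the table peaks of the same direction, 71.7% were narrower than the Tlr2 peak, 78.1% than Tlr4, 51.4% than Tifa, 58.5% than Rela, 8.1% than Tank and 0.424% than Nfkb2.

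**Figure D3:**
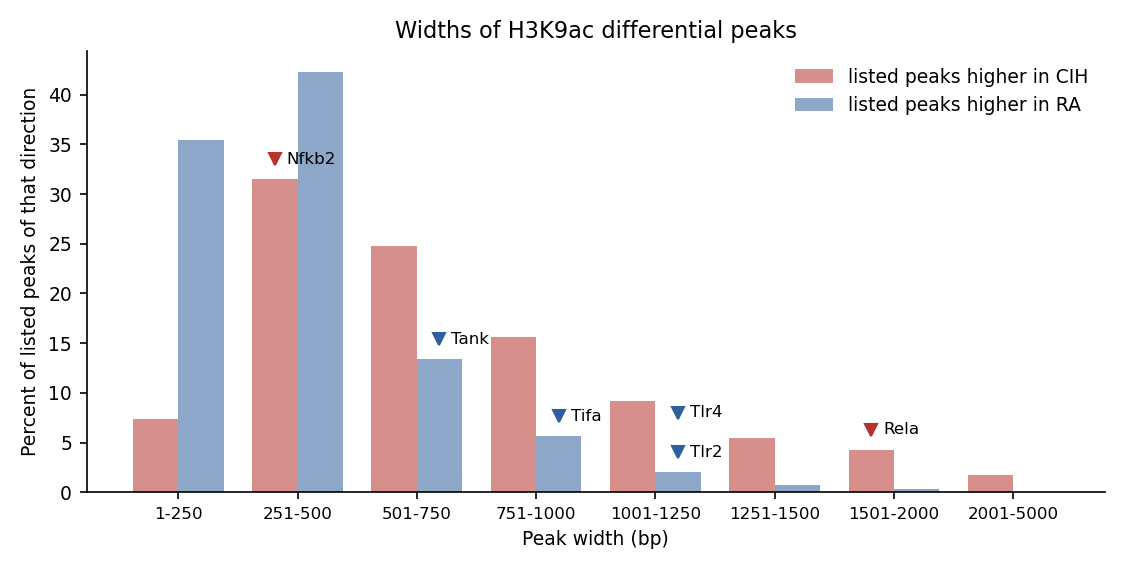
Percent of listed H3K9ac peaks of each direction (vertical axis) in classes of width (horizontal axis, bp); red bars are the CIH direction, blue bars the RA direction, and a triangle stands at the class of each member. Tlr2, Tlr4 and Tifa lie in the sparse right side of the blue bars and Rela in that of the red bars, while Nfkb2 is in the tallest red class.

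With touching peaks counted, most of the neighbours in both classes were higher in CIH. Around the 4 receptor and adaptor peaks there were 10 neighbours, of which 6 were higher in CIH (60%), and around the 2 subunit peaks there were 8, of which 5 were (62.5%). At the receptors and adaptors, 4 of the 6 touched their member. Touching peaks never shared a direction over the list, so these 4 follow from the RA direction of the members, in the count and in the length. The CIH peaks there that did not touch were those of 1100 bp at Tlr2 and 1300 bp at Tank, beside 4 peaks higher in RA. By length, 4400 of 6100 bp of neighbours were higher in CIH at the receptors and adaptors (72.1%), and 4350 of 5450 bp at the subunits (79.8%). Over the list, 68.2% of the neighbour length around RA peaks was higher in CIH, and 56.8% of that around CIH peaks. Around table peaks, from which the members come, these shares were closer, at 63.2% and 61.7%. With the members counted in, 45.4% of the length was higher in CIH at the receptors and adaptors and 85.2% at the subunits, a contrast that the members themselves set. The neighbour length at the subunits rests on the window. Within 20 kb it was 2000 bp and all of it was higher in CIH.

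**Figure D4:**
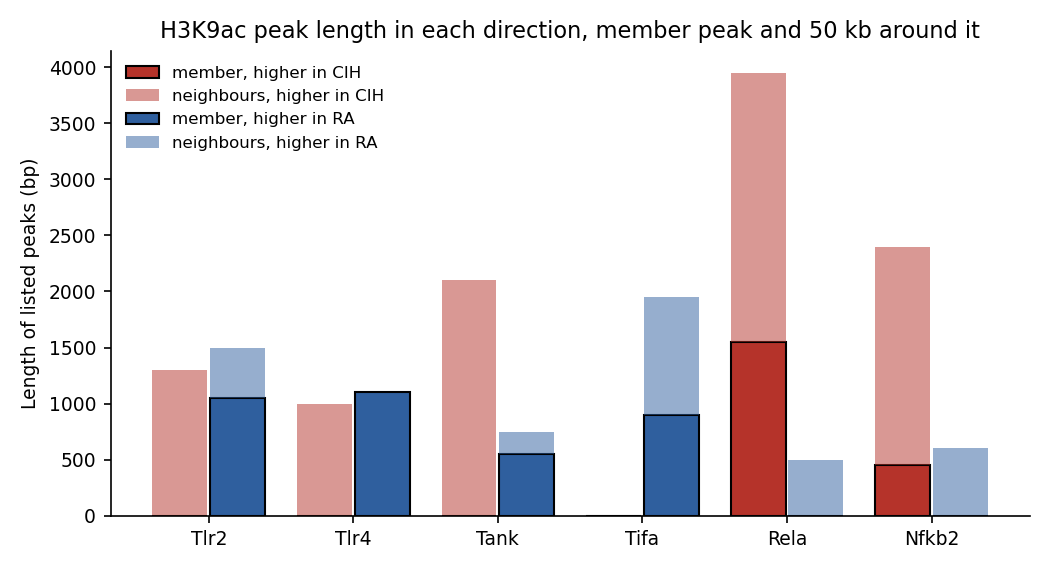
Length in bp of listed H3K9ac peaks (vertical axis, from 0) in each direction for each gene, with the member in solid colour under a black outline and its neighbours within 50 kb in pale colour; red is higher in CIH and blue is higher in RA. Red is the longer bar at Tank, Rela and Nfkb2, blue is the only bar at Tifa, and both are of like length at Tlr2 and Tlr4.

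In all, 9 of 18 neighbours had the direction of their member (50%), beside 42.6% of the pairs within 50 kb in the list. None of the 4 touching neighbours did, and over the list touching peaks never shared a direction. Without the touching ones the share was 9 of 14 (64.3%, list 52.9%). The 4 that lay within 10 kb without touching, at Tlr2, Tifa, Rela and Nfkb2, each had the direction of the member (list 59.4%), and 5 of the 10 farther out did (list 50.8%). Touching neighbours were found at 3 of the 4 receptor and adaptor peaks and at neither subunit peak. Among table peaks, 48.6% of those higher in RA and 30.9% of those higher in CIH touched another. None of the 18 neighbours is named in the part of the tables held, and no H3K27me3 peak lay within 50 kb of an H3K9ac member.

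Base composition and motifs were read from the first 399 bases that the table holds of each peak, and were no part of how members were chosen. The 2 peaks with the most CpG were Tank, with 64.7% GC and a CpG observed to expected ratio of 0.75, and Nfkb2, with 61.9% and 0.68. They differ in direction. Tlr2 (49.9% GC, ratio 0.245), Tlr4 (47.5%, 0.292), Tifa (51.4%, 0.349) and Rela (55.4%, 0.294) were lower. The median over 361 table peaks with all their letters was 52.9% GC and a ratio of 0.535. For Tlr4, 96 of the 399 letters are given as N and were left out. By CpG ratio, each class had 1 member above this median, and the others of each class were below it.

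**Figure D5:**
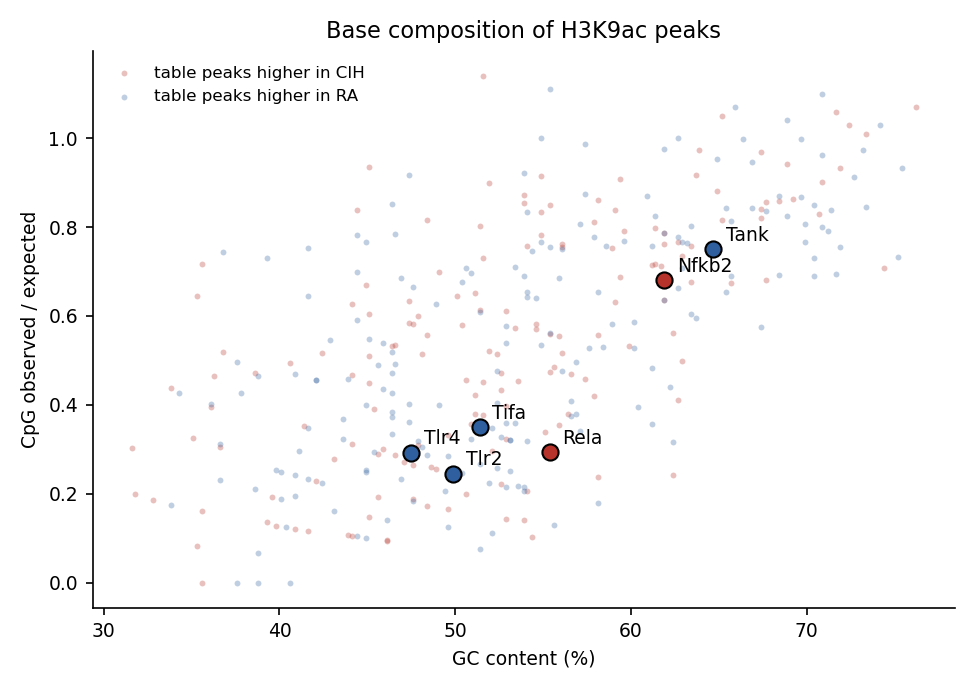
CpG observed to expected ratio (vertical axis) against GC content in percent (horizontal axis) of the first 399 bases of H3K9ac peaks, with small points for 361 peaks of the gene table and large points for the 6 members; red is higher in CIH and blue is higher in RA. Tank and Nfkb2 sit together at the upper right although their colours differ, and the other 4 members lie at ratios below 0.35.

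The NF-kB consensus was found in 3 of the 6 H3K9ac peaks, against 6.37% of the 361 table peaks and 4.51% of 32851 promoter windows. The peaks were those of Tlr2 and Tank, higher in RA, and of Nfkb2, higher in CIH, so the motif occurred in both directions. Tlr2 has overlapping matches at bases 93 and 94 of its peak, which are one stretch. Tank has a match at base 82 that overlaps an SP1 motif (GGGCGG), 72 bases before the first start inside the peak. Nfkb2 has separate matches at bases 176 and 299. The Rela peak has none in the letters held. Over the table peaks the motif was in 8.67% of those higher in RA and 3.64% of those higher in CIH.

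The AP-1 motif TGANTCA was found in 4 of the 6, Tlr4, Tank, Rela and Nfkb2, against 9.14% of the table peaks. In Tank it lies at base 148, which is 6 bases before the first inner start. SP1 was found in 3 (34.1% of table peaks), the ETS motif GGAAGT in 2 (29.1%) and the hypoxia core ACGTG in 1, Tank (29.4%). A motif named for the interferon response was in none (5.26%). Tank, the smallest of the RA members, held every motif searched but the interferon one. A match describes these letters and is not a binding site, and 6 peaks allow no more than the counts.

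RefSeq lists promoter windows for 5 of the 7 genes, and 4 of these genes, Tlr2, Tank, Tifa and Nfkb2, have the NF-kB consensus in at least 1 window, against 5.14% of 27025 genes. Rela has it in none. Tank, Tifa and Nfkb2 have more than 1 window each, which gives more places for a match, and the share over all genes was not matched for this. For Tlr2, Tank and Nfkb2 a promoter match is the same stretch of letters already counted in the peak. The promoter count is therefore not fully separate from the count in the peaks. Tlr2 and Nfkb2 also have promoter matches outside their member peaks, and the match of Tifa is not in the letters held of its peak. Each of the 3 genes whose peak holds the motif also has a peak that shares a run of 30 bases or more with its own promoter. Such a run was present in 19.7% of the 483 H3K9ac table peaks held. Among table peaks the motif was in 5.88% of the 68 with all their letters and a promoter run, and in 6.48% of the 293 without a run.

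Of the wider pathway, a list of 64 genes from receptors to NF-kB inhibitors was looked up in the tables. Of these, 7 had an H3K9ac peak, 5 higher in RA (Tlr2, Tlr4, Tank, Tifa and Alpk1, the last pair sharing 1 peak) and 2 higher in CIH (Rela and Nfkb2), and 1, Ly96, had an H3K27me3 peak. The other 56 had no peak in the part held, which covers few chromosomes beyond 1, 2, 3, 4 and 19. Since 19 of the 64 genes lie on those chromosomes, the genes elsewhere were mostly out of reach, and no statement is made about them. On those chromosomes, Tlr5, Tlr12, Lbp, Traf1, Traf2, Traf5, Traf6, Map3k7, Chuk, Ikbke and Nfkb1 had no peak in the part held. Of these, Nfkb1 also encodes an NF-kB subunit, so the subunit peaks described here do not cover all subunit genes in reach. A gene whose H3K9ac peaks had fewer reads would be missing too, since the study's table keeps the peaks with the most reads.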

How the data were processed

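ChIP-Seq of H3K9ac and H3K27me3 was analysed in 4 libraries. The submitters' processing notes name the build mm9 and the tools MACS2 2.1.0, BWA 0.7.12, Trimmomatic 0.32, bedtools 2.23.0, Picard 1.121 and SAMtools 1.2. For each mark the authors deposited 1 list of peaks that differed between the 2 exposures, with position, name, a score of 1000 in every row and a sign. Edges lie in steps of 50 bp.

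The sign was read through the direction column of the study's gene tables, in which 600 of 600 peaks held matched by name, position and direction. From the tables only gene pairing, direction and sequence were used. The H3K9ac table is held in part. Distances, widths, composition, motifs and exact promoter matches (runs of at least 30 bases) were computed with Python 3.11.15, pandas 2.3.3 and numpy 2.4.6. The neighbour search was checked on simulated peaks and the motif search on a motif planted in simulated sequences. Builds were never converted. Named genes were the 7 members, genes sharing their peaks and genes of a 64-gene pathway list found in the tables or lying on chromosomes 1, 2, 3, 4 and 19. Members and lists were chosen with earlier results of these data known. No test was run. Figures were drawn with matplotlib 3.10.9.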

Additional observations from a re-analysis of the deposited data

How the results depend on the processing

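The number of H3K9ac members higher in CIH went from 2 to 1 without peaks of 500 bp or less, which removes Nfkb2. The number of receptor and adaptor peaks higher in RA went from 4 to 2 without peaks paired with another gene too, which removes Tlr4 and Tifa. A window of 20 kb lowered the neighbours from 18 to 11 and raised the subunits' share of neighbour length higher in CIH from 79.8% to 100%. A window of 100 kb gave 21 neighbours, and leaving out neighbours of 250 bp or less gave 12. The share of neighbours with the member's direction was 50% as reported, 64.3% without touching neighbours and 41.7% without neighbours of 250 bp or less. The setting on shared pairing for the receptors and adaptors, and all settings for shares of length, were chosen after seeing the data. Leaving out each member in turn, the share of neighbours with the member's direction ran from 46.2% to 56.2% and the median width, 975 bp as reported, from 900 to 1050 bp. A stricter peak threshold was not run because the score is constant. No paired analysis was possible because each mark has 1 library per exposure and no replicate numbers.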
